A study of Mus musculus with 235 samples.

Results

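Nr3c1, Nr3c2 and Hsd11b1 are described here in 8 punched regions of the mouse brain, with and without dexamethasone. They encode the glucocorticoid receptor, the mineralocorticoid receptor and 11β-hydroxysteroid dehydrogenase type 1. The 3 genes were taken by symbol from a count table of 27998 genes, and each symbol matched 1 row. All animals were male C57Bl/6 mice aged 3 months. Saline was injected intraperitoneally into 15 of them as vehicle, and the other 15 were injected with the synthetic glucocorticoid dexamethasone (10 mg per kg). Brains were perfused and removed 4 h later, and frozen coronal sections were punched by stereotaxic coordinates. The labels name the regions PFC, PVN, CER and AMY, with dCA1 and vCA1, dDG and vDG, which are not expanded here. Each of the 16 groups held 13 to 15 libraries, 1 per animal, and there were 235 libraries in all.

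Corticosteroids bind both receptors. The mineralocorticoid receptor binds corticosterone, the main glucocorticoid of the mouse, with high affinity and is known for its abundance in the hippocampus, while the glucocorticoid receptor binds it with lower affinity and is expressed in most brain cells. Dexamethasone acts mainly on the glucocorticoid receptor. A bound receptor leaves its chaperone complex, enters the nucleus and changes transcription of its target genes, of which Fkbp5 is among the best known. Hsd11b1 is an enzyme of the endoplasmic reticulum that mainly regenerates active corticosterone from its inert keto form.

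Levels are given as CPM, which are counts scaled to a library total of 1000000. Library totals lay between 268538 and 1451422 counts with a median of 742957, so the members rest on few counts per library. The mean RNA integrity number (RIN) was 7.75 in vehicle and 7.81 in treated libraries of PFC. In the other groups it lay between 5.69 (AMY, treated) and 6.69 (vCA1, vehicle), and the lowest library had 2.2 (AMY, treated). The regions thus also differ in RNA quality. Nr3c1 (ENSMUSG00000024431, mm10, chromosome 18, 39410545 to 39491301, minus strand) had 10 to 171 counts. Nr3c2 (ENSMUSG00000031618, chromosome 8, 76899442 to 77245012, plus strand) had 0 to 122 counts and was at 0 in 1 library. Hsd11b1 (ENSMUSG00000016194, chromosome 1, 193221634 to 193264075, minus strand) had 0 to 55 counts and was also at 0 in 1 library. Each span runs from the first to the last exon base in the deposited count table. Those of Nr3c2 and Hsd11b1 equal the GENCODE M21 spans. That of Nr3c1 has the same lower coordinate as GENCODE M21, which is the 3′ end of this minus-strand gene. Its upper coordinate lies below the GENCODE M21 one at 39519421, so the difference is at the 5′ end. The annotation used for counting is not given in the sources used here. In the table, no exon of another gene in the table overlapped these exons. The libraries count transcript 3′ ends, so a level is compared between groups and not between genes.

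The region names were set against marker genes in the vehicle libraries. Oxt, the oxytocin gene of hypothalamic neurons, had a median of 118 CPM in PVN and medians of at most 7.25 CPM elsewhere. The cerebellar granule cell gene Gabra6 was at 0 counts in each of the 15 CER vehicle libraries. It stood at 50 CPM or more in 5 libraries of vCA1 or vDG, of which 4 were vehicle and 1 was treated. In vDG these were vehicle replicates 4, 14 and 15 (242, 51.0 and 171 CPM) and treated replicate 13 (337 CPM). In vCA1 it was vehicle replicate 15 (254 CPM). The dentate granule cell gene Prox1 reached 455 ± 253 CPM in dDG and 514 ± 145 CPM in dCA1 (SD, n = 15 each). Only 1.89% of genes differed between the vehicle libraries of dCA1 and dDG, the smallest share of any pair of regions. The names CER, dCA1, dDG, vCA1 and vDG are therefore used for the punches and not for a tissue. The vCA1 and vDG values printed below include the libraries high in Gabra6, unless another set is named.

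Without dexamethasone, the glucocorticoid receptor gene had a narrow range of levels over the regions. Mean Nr3c1 lay between 76.8 ± 19.6 CPM (SD, n = 15) in CER and 95.9 ± 15.6 CPM (SD, n = 14) in vCA1. From high to low the order was vCA1, dCA1, PVN, PFC, dDG, AMY, vDG and CER. No 2 neighbours in that order passed the test of their difference (adjusted p from 0.267 to 0.987, edgeR with the animal as a block). Across all 8 regions the level did differ (F = 2.85, adjusted p = 0.0139), as it did for 73.3% of genes. Of the 28 pairs of regions, 5 passed the test, or 17.9%, while 31.4% of all tests of a gene in a pair did so. Each of the 5 had CER as its lower member. The other regions were PFC, PVN, dCA1, dDG and vCA1, and the shares of genes that passed for these pairs were 48.3%, 24.6%, 52.5%, 49.8% and 41.9%.

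Nr3c2 had a steep regional order. The mineralocorticoid receptor gene stood highest in dDG at 74.5 ± 17.7 CPM, followed by dCA1 at 71.6 ± 11.0 CPM (SD, n = 15 each). It was at 46.6 ± 15.7 CPM (SD, n = 14) in vCA1 and 35.5 ± 13.0 CPM (SD, n = 15) in vDG. The 4 CA1 and DG punches thus stood above the rest. CER followed with 19.9 ± 12.4 CPM (SD, n = 15), or 17.1 ± 6.0 CPM (SD, n = 14) without vehicle library 9, AMY with 17.4 ± 5.5 CPM (SD, n = 15) and PFC with 14.0 ± 3.6 CPM (SD, n = 15). PVN was lowest at 10.9 ± 4.7 CPM (SD, n = 14). The difference across regions passed the test (F = 84.2, adjusted p = 3.93e-39), and so did 23 of the 28 pairs, or 82.1%. Between the ends of the order, PVN was lower than dDG by a log2 difference of -2.73 ± 0.17 (SE, adjusted p = 1.03e-27), in a pair for which 43.3% of genes passed.

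The order of Nr3c2 held 2 steps that passed the test between neighbours. The first was from dCA1 to vCA1, at a log2 difference of 0.67 ± 0.14 (SE, adjusted p = 1.27e-04, 22.1% of genes passing). The second was from vDG to CER, at 0.81 ± 0.17 (SE, adjusted p = 4.42e-05, 40.4% of genes passing). Both dCA1 and dDG exceeded vCA1 and vDG in turn, and the difference of dDG and vDG was 1.08 ± 0.14 (SE, adjusted p = 2.36e-09, 15.3% of genes passing). The 5 pairs that did not pass were dDG with dCA1, vCA1 with vDG, CER with AMY, AMY with PFC, and PFC with PVN. In bulk tissue such as these punches, fewer cells that express a gene and less RNA per cell cannot be told apart.

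Hsd11b1 was also highest in dCA1 and dDG, and below them its order differed from that of Nr3c2. AMY and PVN passed in opposite directions, with AMY above PVN for Nr3c2 and below it for Hsd11b1. Mean Hsd11b1 was 35.6 ± 9.1 CPM in dCA1, 34.4 ± 12.8 CPM in dDG and 29.2 ± 11.4 CPM in CER (SD, n = 15 each). It was 25.9 ± 6.3 CPM (SD, n = 15) in vDG, 19.8 ± 7.7 CPM (SD, n = 14) in vCA1 and 16.1 ± 8.2 CPM (SD, n = 15) in PFC. The lowest levels were in PVN, at 14.3 ± 7.2 CPM (SD, n = 14), and AMY, at 9.27 ± 3.08 CPM (SD, n = 15). The difference across regions passed the test (F = 22.3, adjusted p = 1.19e-17), as did 18 of the 28 pairs, or 64.3%. Between neighbours, the step from PVN to AMY alone passed (log2 difference 0.65 ± 0.23, SE, adjusted p = 0.0334, 21% of genes passing). The level in dCA1 exceeded that in vCA1 by 0.82 ± 0.18 (SE, adjusted p = 2.76e-04), while dDG and vDG did not pass (0.41 ± 0.17, SE, adjusted p = 0.102).

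The members were set against each other over the 118 vehicle libraries as a description. These libraries come from 15 animals and share depth and region. Nr3c2 and Hsd11b1 had a Pearson r of 0.49 over libraries and 0.76 over the 8 region means. Within regions, after removal of each region's mean, their r was -0.04. Nr3c1 had an r of 0.18 with Nr3c2 and -0.16 with Hsd11b1 over libraries. The genes most like each member over the same libraries were found among 11506 genes. Nr3c2 was most like Iqgap2 (r = 0.87), Gabra5 (0.86) and Nfib (0.84), and the values within regions were 0.53, 0.36 and 0.30. The genes most like Hsd11b1 included Cabp7 (0.69) and Akain1 (0.63), with values within regions of 0.34 and 0.18. Nr3c1 reached at most 0.49, with Rlbp1, Ssbp4 and Prrc2b.

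**Figure D1:**
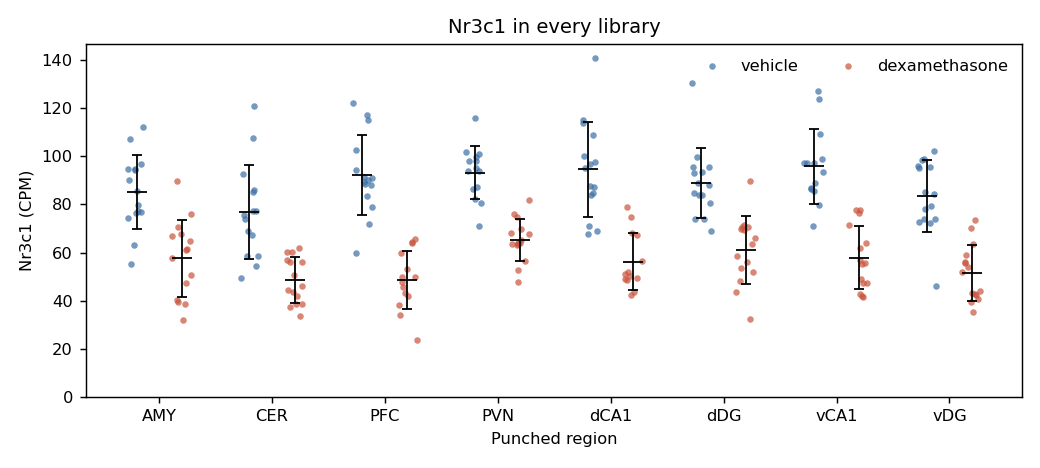
Nr3c1 level (CPM, y axis) by punched region (x axis), 1 point per library, vehicle in blue and dexamethasone in red, with the group mean and SD in black. The dexamethasone mean lies below the vehicle mean in all 8 regions, and the treated libraries overlap with the lowest vehicle libraries in each.

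After dexamethasone, Nr3c1 fell in all 8 regions. The loss was largest in PFC, where the level fell by 46.1%, and smallest in PVN, where it fell by 29.5%. In PFC, vehicle libraries ran from 59.6 to 122 CPM with a median of 90.0, and treated libraries from 23.6 to 65.5 CPM with a median of 48.7. Of the 15 vehicle libraries, 14 stood above every treated library. The log2 fold change in PFC was -0.89 ± 0.11 (SE, edgeR adjusted p = 2.39e-08). In the same fits, genes lower after dexamethasone made up 2.08% of those tested in AMY, 2.28% in CER, 2.28% in PFC and 2.06% in PVN. The share was 1.37% in dDG, 2.11% in dCA1, 1.29% in vDG and 2.04% in vCA1. Vehicle and treated libraries with the same replicate number shared a plate. With that number as a block the share in dDG was 2.59%. The blocked shares ran from 1.63% in vDG to 3.19% in PFC, and that of vCA1 fell to 1.88%.

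The CA1 punches came next in size. In dCA1, Nr3c1 ran from 67.8 to 141 CPM in vehicle libraries (median 95.2) and from 42.3 to 78.9 CPM in treated ones (median 51.2). In vCA1 it ran from 71.0 to 127 CPM (median 95.3) and from 41.3 to 77.8 CPM (median 55.8). The arms overlapped at their edges in both, with 10 of 13 treated libraries of dCA1 and 11 of 15 of vCA1 below the lowest vehicle library. The log2 fold change was -0.76 ± 0.11 in dCA1 (SE, adjusted p = 7.10e-06) and -0.73 ± 0.10 in vCA1 (SE, adjusted p = 2.45e-06). In vDG, vehicle libraries ran from 46.0 to 102 CPM (median 84.3) and treated ones from 35.4 to 73.4 CPM (median 51.8). The vDG arms overlapped, with 7 of 15 treated libraries below the lowest vehicle library, which was replicate 1. Without that library the lowest vehicle value was 72.4 CPM, and 14 of 15 treated libraries were below it. The log2 fold change in vDG was -0.70 ± 0.11 (SE, adjusted p = 2.43e-05).

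In the 4 remaining regions the log2 fold change of Nr3c1 lay between -0.66 and -0.50. In CER, vehicle libraries ran from 49.4 to 121 CPM (median 75.6) and treated ones from 33.8 to 62.0 CPM (median 46.2). In AMY the ranges were 55.4 to 112 CPM (median 85.7) and 31.8 to 89.8 CPM (median 61.1). In AMY 6 of 15 treated libraries were below the lowest vehicle library, and 9 were below the next lowest. In dDG the ranges were 69.1 to 130 CPM (median 88.0) and 32.1 to 89.8 CPM (median 63.7). In PVN they were 71.1 to 116 CPM (median 94.6) and 47.7 to 81.6 CPM (median 64.0). PVN had the smallest fold change and also the narrowest spread, and 12 of its 15 treated libraries were below the lowest vehicle library. The fold changes and their SE were -0.66 ± 0.12 in CER (adjusted p = 6.23e-05), -0.56 ± 0.12 in AMY (adjusted p = 0.00109), -0.55 ± 0.10 in dDG (adjusted p = 3.71e-04) and -0.50 ± 0.08 in PVN (adjusted p = 8.77e-06).

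Although the fold change of Nr3c1 ranged from -0.89 to -0.50, the difference among regions did not pass the test (F = 1.55, unadjusted p = 0.152, adjusted p = 0.994, edgeR interaction with the animal as a block). The same test passed for 1.27% of genes. On simulated counts of 3000 genes it recovered 11% of 1.5-fold and 74% of 2-fold changes restricted to 1 region, so differences of the size seen here could be missed. Libraries also carry a plate number and a punching date. Nr3c1 was lower in 32 of 32 combinations of region and plate, and in 32 of 32 of region and date. Only combinations with more than 1 library per arm were counted, which left out 1 punching date. The same animals recur in these combinations, so they are not independent. It was 1 of 31 genes that were lower in all 8 regions, out of 7924 tested in each, and ranked 22 among them by the size of the mean fold change. The genes whose 8 fold changes came closest to its own were Fjx1, F11r and Kif21b, which passed as lower in 8, 4 and 7 regions.

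**Figure D2:**
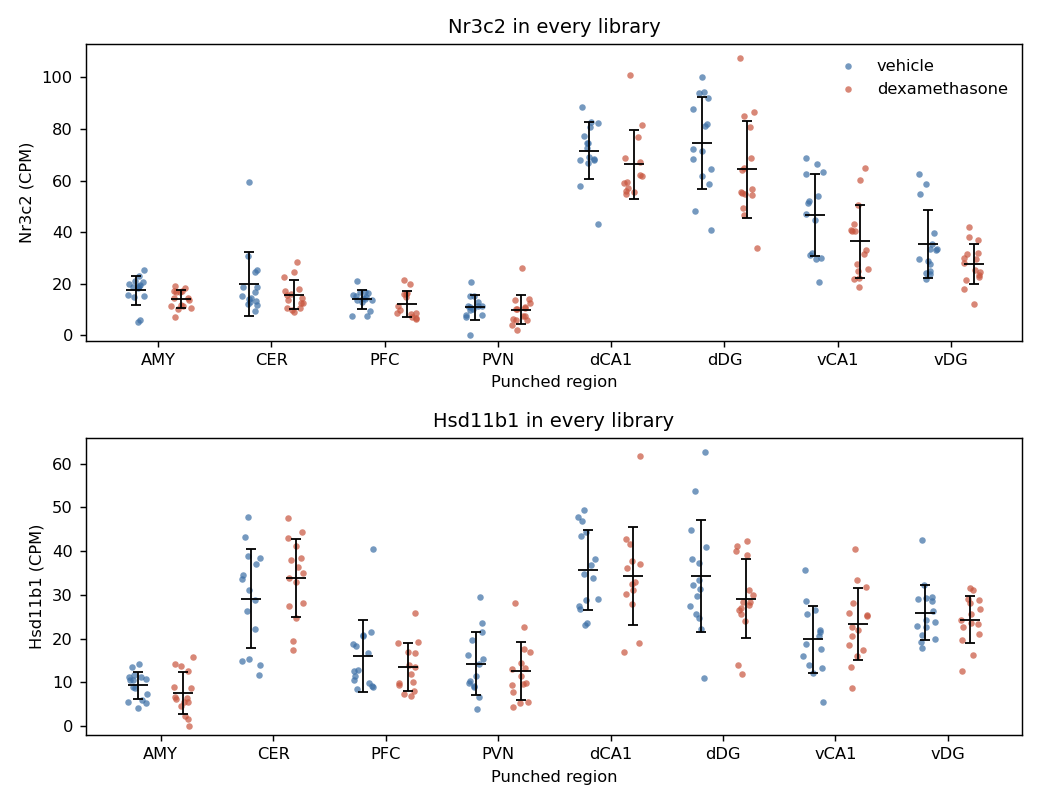
Nr3c2 (upper panel) and Hsd11b1 (lower panel) levels (CPM, y axes) by punched region (x axes), 1 point per library, vehicle in blue and dexamethasone in red, with the group mean and SD in black. The 4 CA1 and DG punches hold the highest Nr3c2 levels, and the arms overlap widely for both genes in every region.

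Nr3c2 passed the test in 0 of the 7 regions in which it was tested, and its unadjusted edgeR p was under 0.05 in 1 of them. All 7 fold changes were negative, from -0.42 to -0.14. For reference, genes that passed in either direction made up 5.62% in AMY, 6.18% in CER, 6.14% in PFC and 5.63% in PVN. The share was 3.7% in dDG, or 6.35% with the replicate block, 4.68% in dCA1, 3.93% in vDG and 5.45% in vCA1. With the block the shares ran from 4.65% in vDG to 8.02% in PFC. PVN was left out for Nr3c2 by the filter on low counts. Its means there were 10.9 ± 4.7 CPM (SD, n = 14) in vehicle and 9.94 ± 5.68 CPM (SD, n = 15) in treated libraries.

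The value with the smallest p was that of vDG. There Nr3c2 ran from 21.9 to 62.7 CPM in vehicle libraries (median 33.0) and from 12.1 to 41.8 CPM in treated ones (median 28.0). The arms overlapped, with 3 of 15 treated libraries below the lowest vehicle library (replicate 1) and 5 below the next lowest, and the fold change was -0.36 ± 0.16 (SE, unadjusted p = 0.0314, adjusted p = 0.335). In vCA1 it ran from 20.6 to 68.8 CPM (median 49.2) and from 18.8 to 65.0 CPM (median 33.2). The vCA1 arms overlapped, with 1 of 15 treated libraries below the lowest vehicle library (replicate 15) and 6 below the next lowest. That vCA1 vehicle library was also the one high in Gabra6, at 254 CPM. The vCA1 fold change was -0.34 ± 0.17 (SE, adjusted p = 0.355). In dDG, where its level was highest, the medians were 72.1 and 56.6 CPM, with ranges of 40.8 to 99.96 and 34.0 to 108 CPM. The dDG fold change was -0.23 ± 0.13 (SE, adjusted p = 0.518), and that of dCA1 was -0.15 ± 0.10 (SE, adjusted p = 0.602).

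In AMY, CER and PFC the fold changes of Nr3c2 were -0.30 ± 0.16, -0.42 ± 0.22 and -0.14 ± 0.18 (SE, adjusted p = 0.443, 0.385 and 0.832). The value of CER rested on vehicle library 9, at 59.2 CPM against a group median of 15.4. Without that library it was -0.19 (adjusted p = 0.829). In PFC the 95% interval of the Nr3c2 fold change ran from -0.50 to 0.21, and in dCA1 from -0.35 to 0.05. A difference of the Nr3c2 response among regions did not pass the interaction test (F = 0.26, adjusted p = 1.00).

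Hsd11b1 passed in 0 of 7 regions by the same edgeR test, and its unadjusted p was under 0.05 in 0. Its fold changes had no common direction, with positive values of 0.17 ± 0.17 (SE) in CER and 0.21 ± 0.19 (SE) in vCA1, and negative ones elsewhere down to -0.26 ± 0.21 (SE) in PFC. In dCA1, its region of highest level, vehicle libraries ran from 23.1 to 49.5 CPM (median 34.8) and treated ones from 16.8 to 61.7 CPM (median 32.9). The treated range of dCA1 enclosed the vehicle range, and the fold change was -0.01 ± 0.15 (SE, 95% interval -0.31 to 0.29, adjusted p = 0.996). AMY was left out by the filter, at 9.27 ± 3.08 CPM (SD, n = 15) in vehicle and 7.47 ± 4.77 CPM (SD, n = 15) in treated libraries. A difference of its response among regions did not pass (F = 0.93, adjusted p = 1.00).

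**Figure D3:**
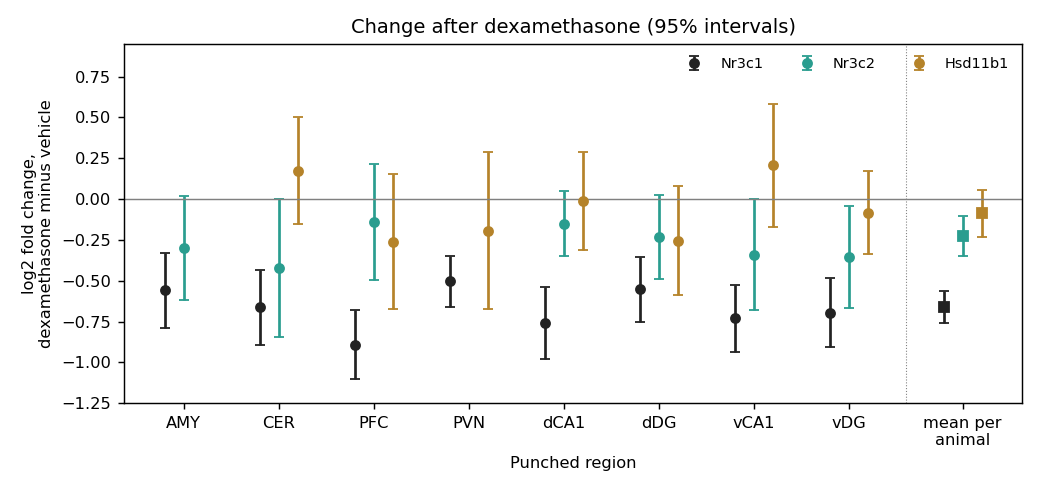
Log2 fold change of dexamethasone minus vehicle (y axis) for Nr3c1, Nr3c2 and Hsd11b1 in each region where the gene was tested, with 95% intervals; squares at the right give the difference of the per-animal means over regions. All intervals of Nr3c1 lie below 0, those of Nr3c2 cross 0 except in vDG and in the mean, and those of Hsd11b1 all cross 0.

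Each animal gave up to 8 regions, so the regions can be averaged within an animal. This test was added after the values by region had been seen. The log2 level of each library was centred on its region, averaged over the regions of an animal and compared between 15 and 15 animals with limma over all genes. Nr3c1 lay between 0.10 and 0.58 in vehicle animals (median 0.31) and between -0.59 and -0.13 in treated ones (median -0.31). The arms did not overlap, and the difference was -0.66 ± 0.05 (SE, adjusted p = 2.37e-13). By this test 19.8% of 11053 genes passed and 10.4% passed as lower.

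In the same averages, Nr3c2 lay between -0.16 and 0.41 in vehicle animals (median 0.05) and between -0.50 and 0.18 in treated ones (median -0.07). Of the 15 treated animals, 14 were below the vehicle median and 6 below the lowest vehicle animal. The difference was -0.23 ± 0.06 (SE, 95% interval -0.35 to -0.10, adjusted p = 0.00468). Nr3c2 thus passed in the average over regions, where it had passed in 0 single regions. Over the 4 CA1 and DG punches alone it was -0.25 (adjusted p = 0.0105), and over the other 4 regions -0.20 (adjusted p = 0.197). Hsd11b1 lay between -0.34 and 0.34 in vehicle animals and between -0.32 and 0.41 in treated ones, and the ranges nearly coincided. For Hsd11b1, 12 of 15 treated animals were below the vehicle median and 0 below the lowest vehicle animal. The difference of Hsd11b1 was -0.09 ± 0.07 (SE, 95% interval -0.23 to 0.06, adjusted p = 0.471).

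**Figure D4:**
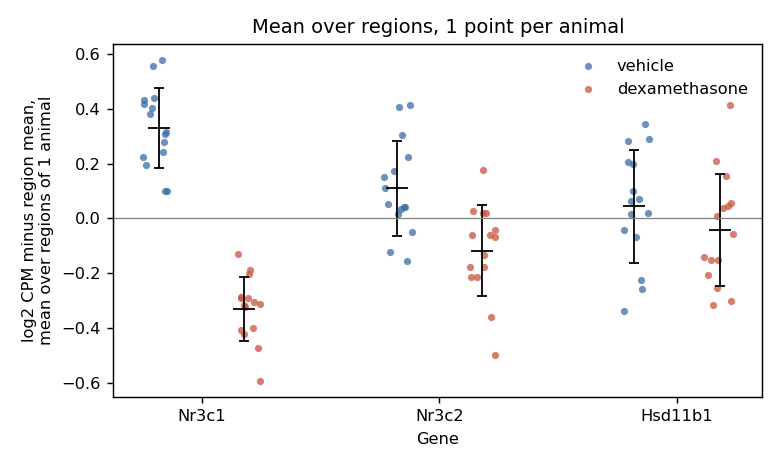
Mean over regions of the region-centred log2 CPM (y axis) for each gene (x axis), 1 point per animal, vehicle in blue and dexamethasone in red, with the mean and SD of 15 animals in black. The arms are apart for Nr3c1, shifted but overlapping for Nr3c2, and overlapping for Hsd11b1.

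The balance of the receptors was taken per library as the log2 ratio of Nr3c1 to Nr3c2, each in CPM plus 1. The capture of 3′ ends differs between genes, so its absolute value is not a ratio of molecules, and it is compared between groups only. In vehicle animals the ratio was lowest in dDG at 0.28 ± 0.33 (SD, n = 15) and dCA1 at 0.39 ± 0.30 (SD, n = 15). It was 1.09 ± 0.59 (SD, n = 14) in vCA1, 1.26 ± 0.51 (SD, n = 15) in vDG and 2.01 ± 0.46 (SD, n = 15) in CER. AMY, PFC and PVN had the highest values, at 2.30 ± 0.58 (SD, n = 15), 2.66 ± 0.36 (SD, n = 15) and 3.19 ± 1.08 (SD, n = 14). Without the PVN library that had no Nr3c2 count, the PVN value was 2.93 ± 0.45 (SD, n = 13), and PFC minus PVN within animals went from -0.52 to -0.24. Of 28 pairs of regions compared within animals by an exact sign-flip permutation test, 24 passed after adjustment. The 4 that did not were AMY with CER (adjusted p = 0.220), PFC with PVN (0.135), dCA1 with dDG (0.351) and vCA1 with vDG (0.508). PFC exceeded dDG in 15 of 15 animals, by 2.38 ± 0.52 (SD, adjusted exact permutation p = 2.44e-04).

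After dexamethasone the mean ratio was lower in all 8 regions, and the difference passed in PFC and dCA1. In PFC the ratio ran from 2.13 to 3.39 in vehicle libraries (median 2.62) and from 0.97 to 2.89 in treated ones (median 1.90). The arms overlapped, and the difference was -0.70 (adjusted p = 0.00140, permutation test with 100000 resamples, 8 regions). In dCA1 it ran from -0.11 to 0.95 (median 0.35) and from -0.66 to 0.28 (median -0.19). All 13 treated libraries of dCA1 were below the vehicle median, and the difference was -0.63 (adjusted permutation p = 3.20e-04). In the other 6 regions the differences lay between -0.44 and -0.34, with adjusted permutation p from 0.0896 to 0.205. The PVN value of -0.44 rested on 1 vehicle library with no Nr3c2 count, whose ratio was 6.63, and without it the difference was -0.17 (adjusted permutation p = 0.435). Whether the change of the ratio differs among regions was not tested.

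**Figure D5:**
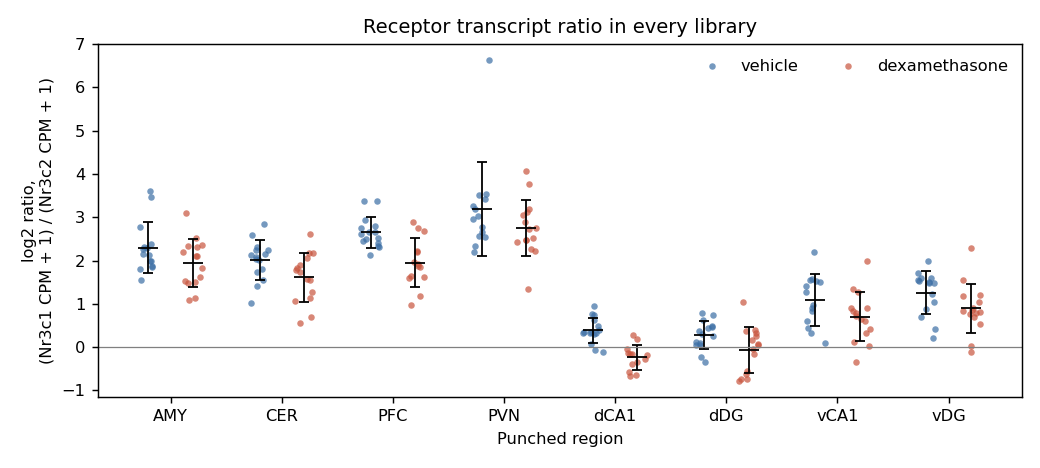
Log2 ratio of Nr3c1 to Nr3c2 (CPM plus 1 each, y axis) by punched region (x axis), 1 point per library, vehicle in blue and dexamethasone in red, with the group mean and SD in black. The ratio is lowest in dCA1 and dDG, and the treated mean lies below the vehicle mean in each region.

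The genes that respond to the receptor were described from a list of 20 glucocorticoid response genes, chosen with earlier results of these data known. Of these, 15 to 18 were tested per region, 13 to 17 rose and 0 fell, where 2.33% to 3.9% of all genes tested rose. The median log2 fold change of those tested lay between 0.81 in dDG and 1.25 in CER. Those that rose in 8 of 8 regions included the transcription regulators Klf9, Zbtb16 and Tsc22d3, the metallothioneins Mt2 and Mt1, and the kinase Sgk1. The signalling inhibitors Errfi1, Nfkbia and Ddit4, the cell cycle inhibitor Cdkn1a and the co-chaperone Fkbp5 also rose in 8. The log2 fold changes of Cdkn1a ran from 1.95 to 3.59, and those of Klf9 from 0.36 to 0.59. The lipid droplet gene Plin4 rose in each of the 7 regions in which it was tested, by 2.23 to 3.01. Mertk and Gjb6 rose in 7 of 8 regions, with Mertk in PFC (adjusted p = 0.121) and Gjb6 in dDG (adjusted p = 0.251) as the exceptions. The phosphatase gene Dusp1 rose in 5 regions, and with the replicate block it also passed in PVN but not in dCA1. The clock gene Per1 passed in PFC alone, while with the replicate block it passed in CER, PVN and vDG and not in PFC.

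The vehicle level of each member was then set beside the size of the transcriptional response over the 8 regions. These correlations are a description of 8 points that share animals, and the response shares its vehicle libraries with the level. Response size was the median log2 fold change of the 15 response genes tested in all 8 regions, which are those named above without Plin4, and it lay between 0.80 in dDG and 1.12 in AMY. Nr3c1 had a Pearson r of -0.03 with it (Spearman rho = -0.10). Nr3c2 had an r of -0.66 (rho = -0.62), Hsd11b1 of -0.78 (rho = -0.79) and the receptor ratio of 0.67 (rho = 0.62). Without the 2 regions farthest from the median level, r was -0.40 for Nr3c1, -0.36 for Nr3c2, -0.49 for Hsd11b1 and 0.46 for the ratio. Without Fkbp5 in the response list it was -0.43 for Nr3c2, -0.53 for Hsd11b1 and 0.42 for the ratio.

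With the percent of genes changed as the response, from 3.7% in dDG to 6.18% in CER, r was -0.75 for Nr3c2 (rho = -0.76) and 0.75 for the ratio (rho = 0.76). Without the 2 farthest regions it was -0.55 and 0.70. For Nr3c1 it was -0.09 (rho = -0.17), and for Hsd11b1 -0.58 (rho = -0.45). Without the 2 farthest regions these became 0.11 for Nr3c1 and -0.62 for Hsd11b1. The vehicle level of Nr3c1 had an r of -0.17 with its own fold change (rho = -0.29), or -0.41 without the 2 farthest regions. With the replicate block, the percent of genes changed ran from 4.65% in vDG to 8.02% in PFC, and dDG, at 6.35%, was no longer lowest. The r with this percent was then -0.52 for Nr3c2, 0.51 for the ratio, -0.28 for Hsd11b1 and -0.17 for Nr3c1. Without the 2 farthest regions these were -0.80, 0.67, -0.18 and -0.42, so the sign for Nr3c1 depended on the block. The r of Nr3c1 with its own fold change was -0.08 with the block (-0.32 without the 2 farthest regions). With the median of the response genes, the blocked r was -0.15 for Nr3c1, -0.59 for Nr3c2, -0.70 for Hsd11b1 and 0.59 for the ratio, and without the 2 farthest regions -0.43, -0.23, -0.33 and 0.35.

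Within a region, treated animals with more Nr3c1 were not those with a detectably larger or smaller response. The response score was the mean log2(CPM + 1) of the same 15 genes, set against Nr3c1 over the treated libraries of each region. Pearson r ran from -0.38 in dDG (n = 15) to 0.39 in vCA1 (n = 15), and 6 of the 8 values were negative. Of 8 relations 0 passed, the smallest adjusted permutation p being 0.666 for r and 0.615 for rho. Without the 2 libraries farthest from the median of Nr3c1, the value of dDG became -0.17 and that of vCA1 0.47. In CER it went from 0.20 to -0.13, in PVN from -0.23 to -0.42, in PFC from -0.16 to -0.35 and in dCA1 from -0.09 to -0.16.

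The partners of the receptors were described from lists of known members. Of 14 genes for receptor chaperones and nuclear import, tested in all 8 regions, Fkbp5 alone passed. Fkbp5 encodes a co-chaperone that lowers hormone binding by the glucocorticoid receptor and is itself induced by it. It rose in 8 of 8 regions, by a log2 fold change of 1.65 ± 0.12 (SE) in dDG to 2.79 ± 0.15 (SE) in PFC. Genes higher after dexamethasone made up 3.54% of those tested in AMY, 3.9% in CER, 3.86% in PFC and 3.57% in PVN. The share was 2.33% in dDG, or 3.77% with the replicate block, 2.57% in dCA1, 2.64% in vDG and 3.41% in vCA1. With the block the shares of higher genes ran from 3.02% in vDG to 4.84% in PFC. The other 13, including Hsp90aa1, Hsp90ab1 and the co-chaperone Fkbp4, passed in 0 regions. The median fold change of the list lay between -0.06 and 0.03, beside -0.02 to 0.00 over all genes tested.

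Vehicle Fkbp5 was highest in dCA1 at 33.6 ± 8.7 CPM (SD, n = 15) and dDG at 32.9 ± 9.4 CPM (SD, n = 15), and lowest in PFC at 12.8 ± 6.4 CPM (SD, n = 15). Treated Fkbp5 ran from 90.3 ± 15.0 CPM (SD, n = 14) in PFC to 143 ± 42 CPM (SD, n = 15) in vDG, and was at 106 ± 18 CPM (SD, n = 13) in dCA1.

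Of 12 coregulators, all tested in 8 regions, 0 passed as lower. Those that passed as higher were Nrip1, a corepressor of nuclear receptors, in PFC (0.32 ± 0.09, SE) and PVN (0.34 ± 0.10, SE), the coactivator Ncoa1 in PVN (0.25 ± 0.08, SE) and the acetyltransferase Ep300 in CER (0.30 ± 0.08, SE). The adjusted p lay between 0.0117 and 0.0373 in these 4 cases. The 4 cases are 4.17% of 96 tests of a gene in a region, near the share of all genes that passed as higher. The coregulators named were chosen after their values were seen.

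The enzymes that supply or oppose Hsd11b1 had few counts. Hsd11b2, which inactivates corticosterone, had 10 counts in all 235 libraries together, and a count of 0 in a library allows up to 2.07 to 11.2 CPM (3 counts), depending on its depth. H6pd, which supplies the cofactor for Hsd11b1, had 417 counts in all and was left out by the filter in every region. Slc37a4, the glucose-6-phosphate transporter that feeds H6pd, passed in 0 of 5 regions tested. Abcb1a, an efflux pump of the blood-brain barrier that exports dexamethasone, was at 16.8 ± 5.4 (PFC, SD, n = 15) to 27.0 ± 12.4 CPM (vDG, SD, n = 15) in vehicle libraries. It passed in 0 of 8 regions, and PVN alone had an unadjusted p under 0.05 ( -0.37 ± 0.17, SE, adjusted p = 0.291). Of the list of 11 genes for steroid activation, inactivation and export, 2 to 5 were tested per region and 0 passed.

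Of 10 genes of steroid synthesis, 1 or 2 were tested per region and 0 passed. The mitochondrial electron carrier Fdx1 was tested in 8 regions and Fdxr in 2. Cyp11a1, the first enzyme of the pathway, had 580 counts in all, and Cyp11b2 had 0. Among other steroid receptors, the progesterone receptor gene Pgr was tested in 8 regions and passed in 0. Esr1 and Esr2 were left out by the filter everywhere, and Serpina6, which encodes the corticosteroid-binding globulin, had 0 counts.

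Cell type markers were set beside the fall of Nr3c1. Over all genes tested, 1.29% to 2.28% per region passed as lower and 2.33% to 3.9% as higher. With the replicate block these shares were 1.63% to 3.19% and 3.02% to 4.84%. Of 8 neuron markers 0 passed in any region, and the median of their summed level in treated libraries differed from vehicle by log2 values of -0.10 to 0.13. The summed level of 8 astrocyte markers differed by -0.19 to -0.04, with Sox9 lower in 8 regions and the other lower gene, Aqp4, in dCA1. Aldh1l1 was higher in dCA1. Of 8 microglia markers, Cx3cr1 and P2ry12 were lower in 8 regions and the other 6 passed in 0. The median fold change of those tested lay between -0.28 and 0.00, and the median of the summed level differed by -0.59 to -0.35. Of 8 endothelial markers 6 were tested. Flt1 and Slco1a4 were lower in 8 regions and Itm2a in PFC, dDG and vCA1, while the glucose transporter gene Slc2a1 was higher in 8 regions, and the median of the summed level differed by -0.11 to 0.09. The summed level of 8 oligodendrocyte markers differed by -0.57 to 0.07, and the myelin gene Mog in AMY alone passed, as lower. Ttr, a choroid plexus gene, was lower in vCA1 (-2.27 ± 0.56, SE, adjusted p = 0.00692), the one choroid plexus marker to pass, but not with the replicate block (-0.98 ± 0.37, SE, adjusted p = 0.150), and the summed level of that list differed by -2.14 to 0.05. Of the fibroblast and meningeal markers the collagen gene Col1a2 alone passed, as higher in PVN, and of those of pericytes and smooth muscle 0 passed. With the replicate block Aqp4 in PFC and PVN, Gja1 in dDG, Mag in vCA1 and Mog in dDG also passed as lower, and Ttr in PFC and Olig1 in CER as higher. The part of these cell types in the changes of the members was not tested. Of 8 dentate granule cell markers, 3 were higher in vCA1, 2 were lower in dCA1, and 1 was lower in each of AMY, CER and PVN. With the replicate block C1ql2 in vCA1 did not pass (adjusted p = 0.0682), while Stxbp6 in dCA1 passed as lower and Dsp in dDG as higher. Their summed level in vCA1 had a median of 233 CPM in vehicle and 359 CPM in treated libraries, and in dCA1 of 1349 and 960.1 CPM. With the level of 6 of these genes as a covariate, the fold change of Nr3c1 was -0.80 in dCA1 (adjusted p = 1.46e-06) and -0.62 in vCA1 (adjusted p = 4.27e-04).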

How the data were processed

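RNA of 235 punches was made into 3′ end libraries (QuantSeq forward kit) with unique molecular identifiers, per the labels' protocols. FastQC 0.11.4, cutadapt, UMI-tools 0.5.4, STAR 2.6.0a, featureCounts 1.6.4, DESeq2 1.30.1, R 4.0.5 and mm10 are named in the submitters' processing notes. The authors deposited raw counts of 27998 genes, from featureCounts per the file headers, and per region a table of variance-stabilised log2 values that lists 228 of the libraries. The deposited log2 values served as an alternative input only. Whether counting used strand is not given in the sources used here. GENCODE M21 gave symbols for 27645 genes. No sequence is printed.

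Groups come from the titles. In each region, genes passing filterByExpr were scaled by trimmed means (TMM) and tested with edgeR 4.0.16 quasi-likelihood fits, dexamethasone against vehicle, with no covariate. The threshold was 0.05 on the Benjamini-Hochberg adjusted p over all genes of the fit, and the SE is the absolute log2 fold change over the square root of F. Within a region, all 115 pairs of a vehicle and a treated library with the same replicate number shared the plate and 109 the punching date (the exceptions had number 4), per the labels, so the number pairs libraries by batch. Over all genes, the deviations of paired libraries had a median correlation of 0.0466 to 0.215 by region, above 0.1 in 4 to 12 of the 13 to 15 pairs. Fits with the number as a block are given where they change a call or a count. Region differences were tested in 1 fit with the animal as a block. Printed CPM use TMM factors over all 235 libraries. The ratio used a pseudocount of 1 CPM. Likeness in vehicle was Pearson r of log2 CPM (prior count 2) among genes of at least 5 CPM on average, and likeness in response was the mean absolute difference of the 8 fold changes. The 3 most alike were named, except for a gene that is not reported here. Listed genes were named if they passed in at least 4 regions, with Hsd11b2 and Abcb1a in any case, and the others were named after their values were seen. Per-animal means were tested with limma 3.58.1. R 4.3.3, DESeq2 1.42.0, Python 3.11.15, numpy 2.4.6, pandas 2.3.3, scipy 1.17.1 and matplotlib 3.10.9 were used, and the tests were tried on simulated data. On simulated counts the fit of PFC recovered 43.4% of 1.5-fold and 99% of 2-fold changes. The members and the gene lists were chosen with earlier results of these data known. Alternatives covered scaling, the filter, covariates, the replicate number, the test, the libraries used and the pseudocount. No pair of libraries in a group was as alike as sampling noise allows (smallest chi-square per degree of freedom 1.34). Intervals and limits at a count of 0 cover counting error only, except for the 95% intervals of fold changes, which rest on the spread between animals.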

Additional observations from a re-analysis of the deposited data

How the results depend on the processing

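Nr3c1 was lower and past the threshold in all 79 alternative fits of the 8 regions, with log2 fold changes from -0.91 to -0.34 and adjusted p of at most 0.00222. Nr3c2 was negative and did not pass in any of 70 (smallest adjusted p 0.0550), and Hsd11b1 did not pass in any of 70 (smallest 0.478). Hsd11b1 in dCA1, at -0.01, had the other sign with punching date and plate as factors (0.025) and over the libraries of the variance-stabilised tables (0.014). Nr3c1 and the response score in dCA1 (r = -0.09) turned to 0.020 with upper-quartile scaling, and neither passed. With the replicate number, which marks a shared plate, as a replicate block, the genes changed in dDG went from 316 to 543, and the Nr3c2 fold change in vCA1 was -0.42 (adjusted p = 0.0550). The block moved the correlation over regions of the percent of genes changed with Nr3c2 to -0.52, with Hsd11b1 to -0.28 and with the ratio to 0.51, and that of Nr3c1 with the response median to -0.15. Under the block no call of a member, the ratio, a chaperone or a coregulator changed. With a covariate for the dentate level, the genes changed in vCA1 went from 497 to 279. The other 77 alternative counts of genes changed were within 1.5 times the first. The ratio change in CER passed with a pseudocount of 5 CPM (-0.40, adjusted permutation p = 0.0489). The per-animal difference of Nr3c2 did not pass over AMY, CER, PFC and PVN alone (-0.20, adjusted p = 0.197). Without Fkbp5 in the response list, the correlation over regions with the level of Nr3c1 was -0.17, of Nr3c2 -0.43, of Hsd11b1 -0.53, and with the ratio 0.42. Without 1 PVN vehicle library that had no Nr3c2 count, the ratio change in PVN was -0.17 and 24 pairs of regions still passed. The cause of these shifts was not tested. Leaving out libraries, the PVN ratio, the block in these correlations, and the per-animal test were chosen after seeing the data. Counts per library limit Nr3c2 in PVN and Hsd11b1 in AMY, which had means of 9.5 and 6.47 counts in vehicle libraries.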

Other observations

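The spread of the members between vehicle animals differed by gene and region. The coefficient of variation of Nr3c1 CPM ran from 11.9% in PVN to 25.5% in CER, that of Nr3c2 from 15.4% in dCA1 to 62.2% in CER, and that of Hsd11b1 from 24.4% in vDG to 51.3% in PFC. The value of Nr3c2 in CER rested on vehicle library 9, and without it the coefficient was 35.5% in CER and highest in PVN, at 43.7%. These values include counting error, which is larger for the genes with fewer counts. Without the filter on low counts, the fold change of Nr3c2 in PVN was -0.20 ± 0.23 (SE, edgeR adjusted p = 0.783) and that of Hsd11b1 in AMY was -0.17 ± 0.27 (SE, edgeR adjusted p = 0.869). Over the same combinations as counted for Nr3c1, Nr3c2 was lower in 22 of 32 of region and plate and in 22 of 32 of region and punching date. Hsd11b1 was lower in 15 and 21 of 32.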
